A study of Homo sapiens with 9 samples.

Results

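THP-1 cells treated with phorbol ester and then with bacterial lipopolysaccharide (LPS) were compared with cells given phosphate-buffered saline (PBS) in its place. The comparison used 6 of the 9 RNA sequencing libraries of the study: LPS 1, 2 and 3 against control 1, 2 and 3, chosen by the treatment in their labels, and it was described across all 12970 genes with enough counts to test. THP-1 is a human monocytic leukaemia line that grows in suspension. Per the labels all cells carried the WT genotype and first received PMA, a phorbol ester after which they adhere and take on macrophage features, so that the controls are PMA-treated cells too. The LPS group then received LPS, a lipid-linked sugar of the Gram-negative outer membrane, and the remaining 3 libraries received LPS with ABS, which the labels do not spell out while the study's title speaks of apoptotic bodies. Those last libraries entered the count filter, the scaling and the estimate of the spread between replicates, but not the fold changes. The sources used here give neither dose nor duration of any treatment. Whether libraries of a group stem from different cultures is not labelled, and the p-values therefore measure only the spread between these samples, which may be technical.

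LPS is sensed at the cell surface by TLR4 with its partners CD14 and MD-2 (LY96). Signals through MYD88 lead to NF-kB and a burst of cytokine genes, and signals through TICAM1 lead to interferon beta, whose receptor turns on antiviral genes through a complex that holds STAT2 and IRF9. A separate system, the integrated stress response, phosphorylates the translation factor eIF2alpha when amino acids, haem or protein folding fail, or when double-stranded RNA is sensed; most translation slows while that of the transcription factor ATF4 rises, and ATF4 turns on genes for making, importing and charging amino acids.

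Control libraries held 39791729 to 41608801 counts and LPS libraries 39168526 to 41679412. Correlations of log2 CPM within groups were 0.993 to 0.995 for controls and 0.987 to 0.993 with LPS, and every pair of libraries in a group differed beyond sampling noise (chi-square per degree of freedom at least 7.23). The first principal component of the 6 libraries, 63.6% of variance, separated the groups, and the second, 15.4%, set LPS 1 (25.4) apart from LPS 2 (-20.3). Among the 3 LPS libraries, LPS 3 held the highest level of 50 of 51 interferon-stimulated genes and 38 of 43 NF-kB-driven genes, against 27.3% of all genes tested, and LPS 1 that of 43 of 49 cytoplasmic ribosomal proteins and 30 of 35 mitotic genes, against 37.3%. Levels below are library-scaled counts (CPM, from edgeR with TMM scaling), given for libraries 1, 2 and 3 in that order.

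More genes reached large rises than large falls with LPS. A gene is said to be called when its adjusted p in edgeR's quasi-likelihood test was under 0.05, which was met by 1933 of 12970 genes (14.9%), 1000 higher with LPS (7.71%) and 933 lower (7.19%), where 3816 (29.4%) had an unadjusted p under 0.05. Of the called genes 607 changed at least 2-fold (4.68%), 442 higher (3.41%) and 165 lower (1.27%). Leaving out control 1, 2 or 3 lowered the number to 907, 891 and 890, and leaving out LPS 3 to 873, while a fit of the 6 libraries alone gave 3245. For this reason a gene is said below to rise or fall only if it stayed called, in the same direction, in each of the 6 fits that leave out 1 LPS or control library. That held for 692 genes (5.34%), 450 that rose (3.47%) and 242 that fell (1.87%). Of the 450 that rose, 114 changed more than 4-fold and 202 between 2- and 4-fold. Of the 242 that fell, 11 changed more than 4-fold and 73 between 2- and 4-fold.

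Most genes moved little. Of the genes tested, 10267 differed by less than 1.5-fold, and the median log2 fold change was -0.03, with 47.3% of genes above 0. The groups of 3 libraries did not overlap for 5519 genes (42.6%), far more than passed the test. The share called grew with expression, from 8.44% in the fifth of genes with the lowest mean FPKM to 22.2% in the fifth with the highest, as the median SE of the log2 fold change fell from 0.47 to 0.14. The share called fell with transcript length, from 18.2% to 10.6%. Across the 5 GC content classes the median log2 fold change stayed between -0.05 and 0.00. Single libraries differed more in their slope of log2 CPM, less its mean over 9 libraries, per 10 points of GC content. The slopes were -0.15, -0.14 and -0.12 in controls 1, 2 and 3 and -0.27, -0.02 and -0.10 in LPS 1, 2 and 3.

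**Figure D1:**
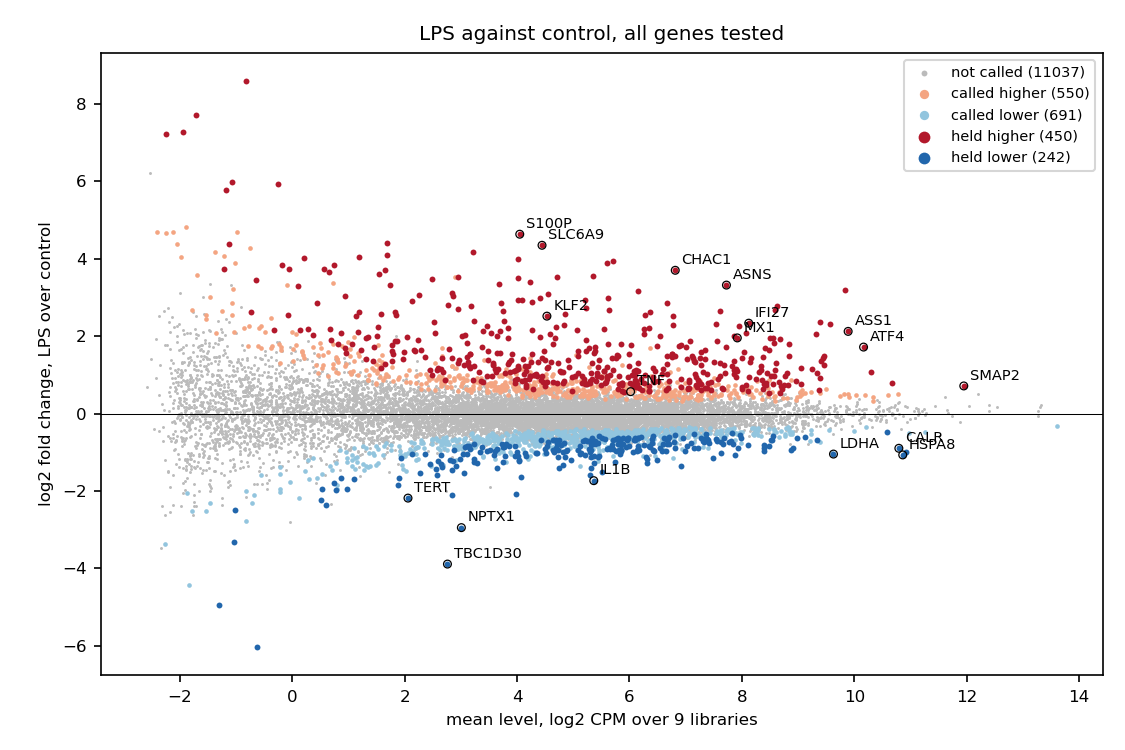
Mean level (log2 CPM over 9 libraries, horizontal axis) against the log2 fold change of LPS over control (vertical axis) for 12970 genes; dark points are the 450 genes that rose and 242 that fell with every library left out in turn, pale points other called genes. CHAC1 (3.703) and ASNS (3.32) lie far above 0, IL1B (-1.73) below it and TNF (0.57) within the cloud of genes that were not called.

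The gene lists used below cover 42 pathways and cell functions. They hold 184 of the 692 genes that rose or fell, and the other 508 are in none of them. At the upper end stood the ATF4 network and the interferon-stimulated genes, and at the lower end cholesterol synthesis, ribosome biogenesis, DNA replication, cytosolic chaperones, hypoxia-type genes and glycolysis. In bulk RNA a smaller number of cells of a type and less RNA per cell cannot be told apart.

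**Figure D2:**
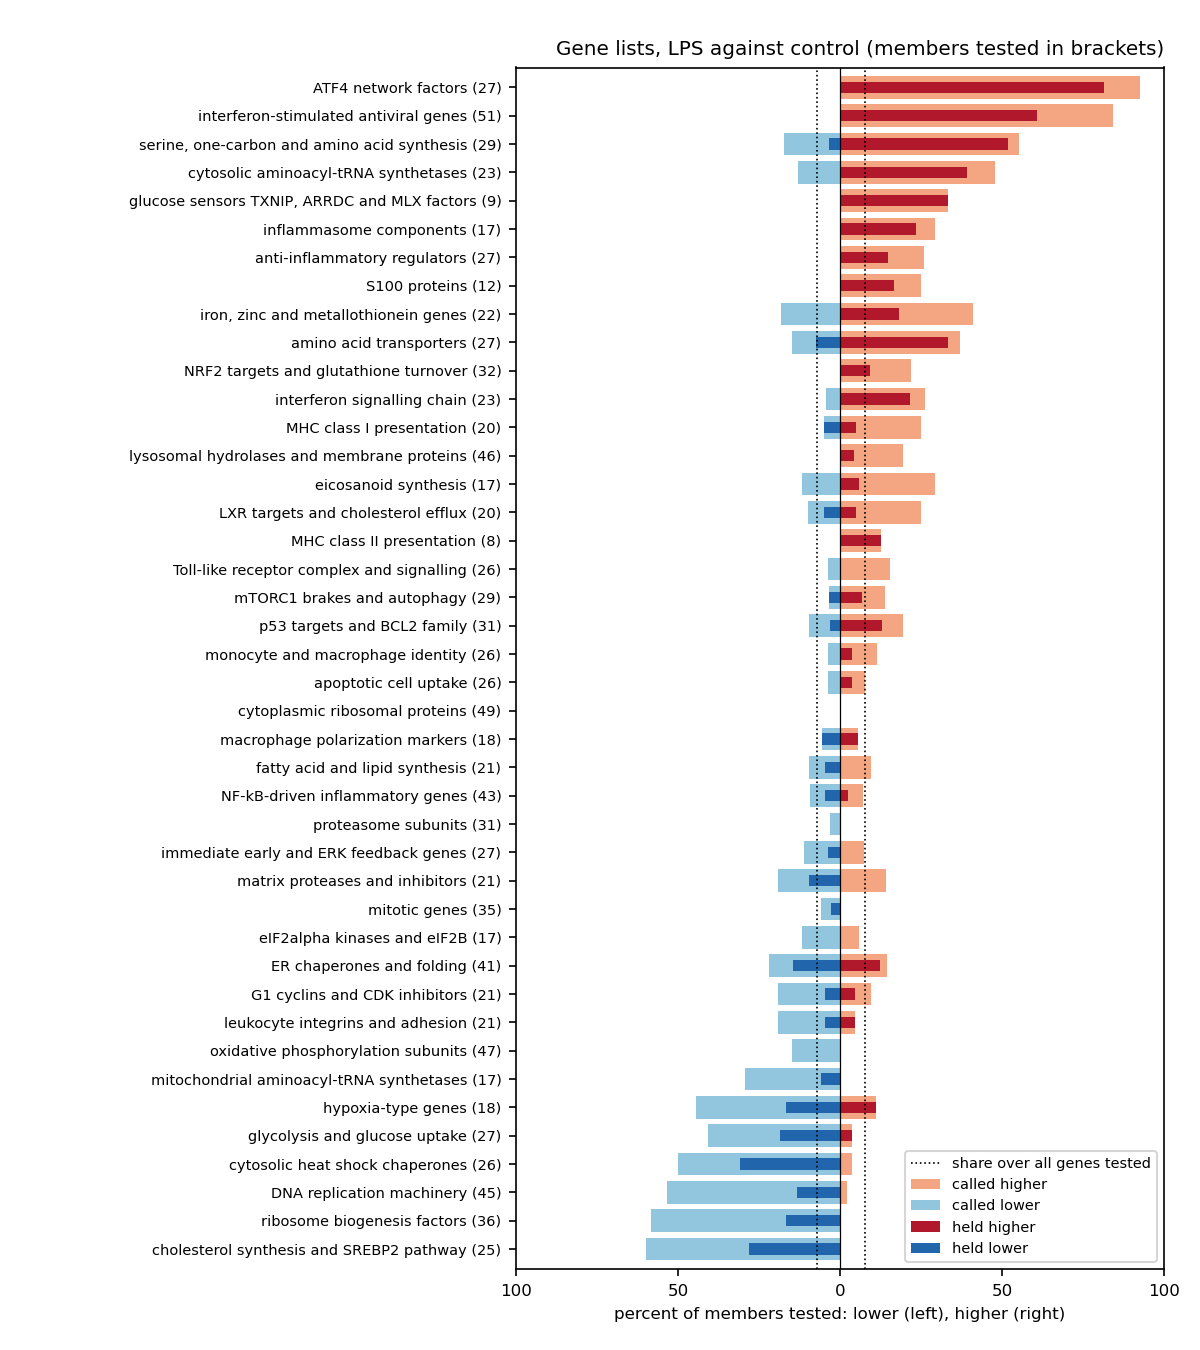
Percent of the members tested of each of 42 gene lists that were higher (right) or lower (left) with LPS; pale bars are members called, dark inner bars members that kept the call with each library left out, and dotted lines the shares of all genes tested, 7.71% and 7.19%. The ATF4 network (27 members tested) and the interferon-stimulated genes (51) reach farthest to the right, and cholesterol synthesis (25) farthest to the left.

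The ATF4 network had the highest median log2 fold change of the 42 lists. Of 27 members tested (FGF21 had too few counts), 25 were called higher and 0 lower, against 7.71% and 7.19% of all genes. Among the 25, 22 rose with every library left out. The list's median log2 fold change was 2.22, against -0.03 over all genes. ATF4 itself, the transcription factor of the response, stood at 493, 483 and 487 CPM in controls and 1636, 1539.5 and 1639 CPM with LPS (log2 fold change 1.72 ± 0.15 SE, adjusted p = 7.2e-05). The controls lay close together, and every LPS library was over 3 times the highest control. DDIT3, which encodes the stress factor CHOP, was at 13.2, 12.95 and 11.3 CPM in controls and 93.3, 77.5 and 71.2 CPM with LPS (2.69 ± 0.29, adjusted p = 1.5e-04). Other transcription factors of the network rose too: the partners and relatives ATF3 (2.14), ATF5 (2.38), CEBPB (1.49), CEBPG (1.01) and JDP2 (2.22).

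Among the effectors of the network, CHAC1, which degrades glutathione, was measured at 14.4, 9.48 and 7.23 CPM in controls and 105, 135 and 166 CPM with LPS (log2 fold change 3.703 ± 0.31 SE, adjusted p = 7.2e-05). NUPR1, a small stress-induced chromatin protein, rose from 10.3, 5.41 and 3.62 to 93.5, 99.1 and 106 CPM (3.94 ± 0.49, adjusted p = 3.8e-04). TRIB3, a pseudokinase that feeds back on ATF4, rose by 2.78 on the log2 scale. The secreted factors of the list rose together: INHBE, an activin subunit, from 6.95, 4.76 and 3.05 to 61.5, 73.2 and 83.7 CPM, ADM2, a peptide hormone, from 2.13, 2.23 and 1.65 to 14.9, 28.3 and 19.9 CPM, and STC2 (2.98), GDF15 (3.04) and VEGFA (2.33) likewise. For these genes the control and LPS libraries did not overlap, and control 1 held the highest control level of 21 of 27 members, against 31.9% of all genes.

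Brakes on translation and growth that ATF4 controls were also higher. SESN2, which restrains mTORC1 when leucine is short, stood at 24.5, 18.8 and 17.7 CPM in controls and 83.3, 150.4 and 116 CPM with LPS (2.52 ± 0.25, adjusted p = 1.3e-04), and DDIT4, another mTORC1 inhibitor, at 49.4, 43.8 and 29.7 CPM in controls and 231, 259.6 and 283 CPM with LPS (2.65 ± 0.29, adjusted p = 2.0e-04). EIF4EBP1, which holds back cap-dependent translation, rose by 1.63. SESN3, a relative of SESN2, fell (-0.96). PPP1R15A, which removes the phosphate from eIF2alpha, was called (0.82) but lost the call without control 1, 2 or 3 or LPS 3. The pro-apoptotic BBC3 (1.18) and TNFRSF10B (0.82) rose. The 4 eIF2alpha kinases themselves, EIF2AK1 (-0.22), the double-stranded RNA sensor EIF2AK2 (0.56), the endoplasmic reticulum sensor EIF2AK3 (-0.21) and the amino acid sensor EIF2AK4 (0.02), were not called; their phosphorylation is not measured by RNA.

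**Figure D3:**
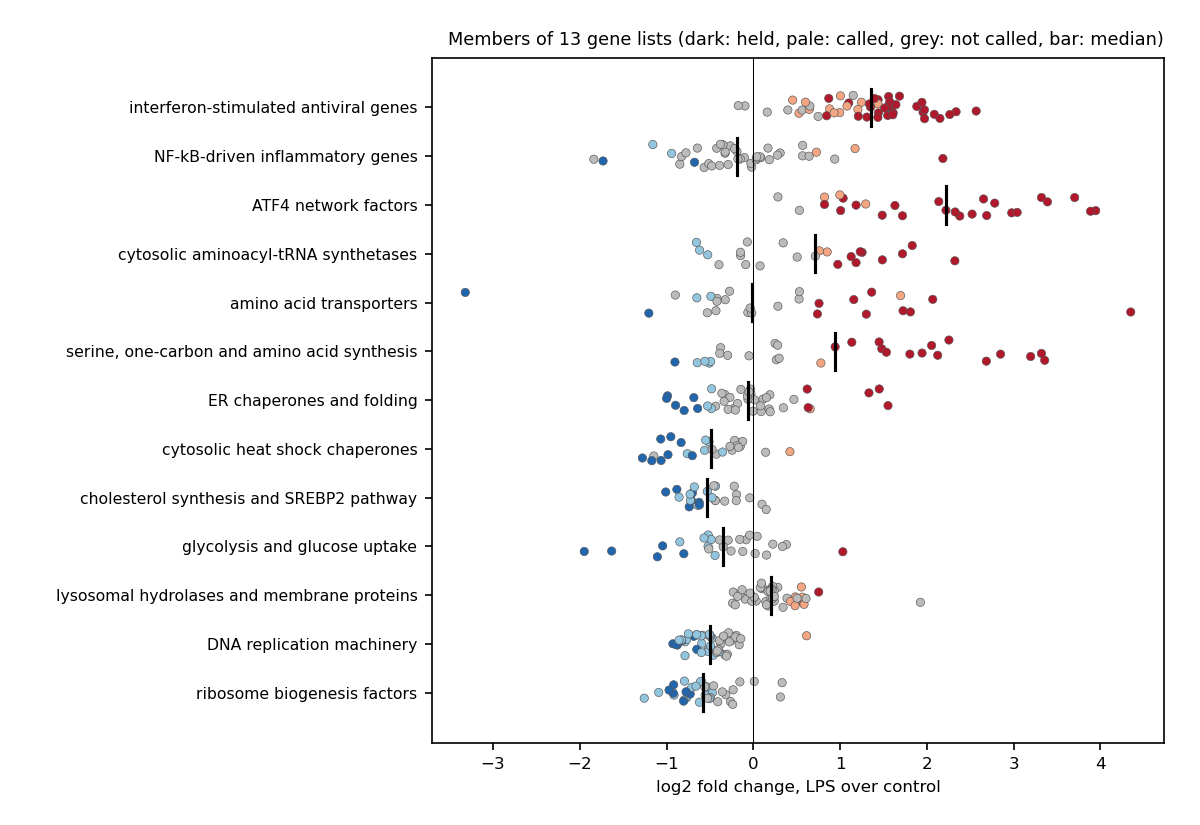
Log2 fold change of LPS over control (horizontal axis) for each member tested of 13 gene lists (rows); dark points kept the call with each library left out, pale points were called, grey points were not, and the black bar is the list's median. Every member of the ATF4 network lies above 0, and most interferon-stimulated genes lie between 0.5 and 2.6. The lists from chaperones to ribosome biogenesis sit mostly below 0, apart from the lysosomal genes, which lie mostly above 0 (median 0.199).

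Genes for charging transfer RNA with amino acids rose in the cytosolic set and not in the mitochondrial set. Of 23 cytosolic aminoacyl-tRNA synthetases and their scaffold proteins, 11 were called higher and 3 lower, against 7.71% and 7.19% of all genes. In this set 9 rose with every library left out (list median 0.71). GARS1, the glycyl-tRNA synthetase, stood at 145, 139 and 143 CPM in controls and 511, 508 and 498 CPM with LPS (log2 fold change 1.83 ± 0.17 SE, adjusted p = 1.1e-04). WARS1, the tryptophanyl enzyme, which is also an interferon target, went from 239.7, 216 and 221 to 1141, 1073 and 1167 CPM (2.32 ± 0.24, adjusted p = 1.5e-04). Also risen were CARS1 (1.72), MARS1 (1.49), AARS1 (1.25), SARS1 (1.23), YARS1 (1.18), IARS1 (1.13) and TARS1 (0.97), the enzymes for cysteine, methionine, alanine, serine, tyrosine, isoleucine and threonine. Both chains of the phenylalanine enzyme, FARSA (-0.66) and FARSB (-0.53), and RARS1 for arginine (-0.62) were called lower, FARSA not without control 2, FARSB not without control 1, 2 or 3 or LPS 2 or 3 and RARS1 not without control 1 or 2 or LPS 2 or 3. Of 17 mitochondrial synthetases 0 were called higher and 5 lower, and EARS2, the mitochondrial glutamyl enzyme, fell from 47.7, 47.3 and 45.1 to 21.3, 22.7 and 25.3 CPM (-1.02 ± 0.18, adjusted p = 0.00338). The called lower count of this list was 3, 2, 1, 3, 3 and 1 without control 1, 2 or 3 or LPS 1, 2 or 3, respectively.

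Enzymes of serine synthesis and of the mitochondrial one-carbon pathway rose at successive steps. PHGDH, the first enzyme of serine synthesis, stood at 204, 168 and 127 CPM in controls and 1338, 1558 and 1679 CPM with LPS (log2 fold change 3.19 ± 0.34 SE, adjusted p = 1.5e-04), and the next enzymes PSAT1 (2.68) and PSPH (2.05) rose with it. In the mitochondrial one-carbon pathway SHMT2 (1.48), MTHFD2 (1.94), MTHFD1L (0.94) and ALDH1L2 (2.85) rose, whereas the cytosolic MTHFD1 (-0.65) and the thymidylate synthase TYMS (-0.51) were called lower, MTHFD1 not without control 1, 2 or 3 or LPS 2 or 3 and TYMS not without control 1, 2 or 3 or LPS 2 or 3. ASNS, which makes asparagine, was at 44.97, 35.1 and 28.05 CPM in controls and 405, 326 and 348 CPM with LPS (3.32 ± 0.40, adjusted p = 3.3e-04). CTH and CBS, which turn homocysteine into cysteine, rose by 3.36 and 1.804, and ASS1, the argininosuccinate synthase, reached 1431, 1519 and 1864 CPM from 404, 354 and 346. In proline synthesis PYCR3 fell (-0.90). In all 16 of 29 members were called higher and 5 lower, against 7.71% and 7.19% of all genes. Among the 16, 15 rose with every library left out.

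Amino acid carriers divided. Of 27 tested 10 were called higher and 4 lower, against 7.71% and 7.19% of all genes, with a median of -0.02. The 2 chains of the large neutral amino acid exchanger, SLC7A5 and SLC3A2, were at 182, 153 and 149 CPM in controls and 454, 872 and 701 CPM with LPS and at 166, 153 and 139 CPM in controls and 423, 577 and 608 CPM with LPS (2.07 ± 0.24, adjusted p = 3.1e-04 and 1.81 ± 0.24, adjusted p = 6.4e-04), with LPS 1 the lowest LPS library for both. The glycine carrier SLC6A9 rose from 2.52, 1.47 and 0.689 to 23.3, 40.2 and 32.1 CPM, and the neutral carriers SLC1A4 (1.36), SLC1A5 (1.16), SLC38A1 (1.73) and SLC38A2 (1.302) rose as well. The aromatic amino acid carrier SLC16A10 (-3.32, from 0.719, 0.437 and 0.615 to 0.0230, 0.119 and 0.0257 CPM, a low level) and the glutamine carrier SLC38A5 (-1.204) fell. SLC7A11, the cystine importer, was called higher (1.697) but not without control 2 or 3.

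ATF4 and its partners bind a composite element whose core is TGATGCAA, so the RefSeq promoter windows (GRCh38.p14, 250 bases before to 50 after the start) were searched for these letters on both strands. They occurred in 0.923% of all 27305 promoters, in 0.518% of 10616 genes tested that had a window, in 15 of 358 genes that rose (4.19%) and in 1 of 200 that fell (0.5%). Among called-higher cytosolic synthetases with a window, 5 of 9 held it, namely AARS1, CARS1, IARS1, MARS1 and TARS1; of the ATF4 network 1 of 21, CHAC1; and of the called-higher synthesis genes 3 of 11, MTHFD1L, GOT1 and BCAT1. It was in 0 of 9 called-higher carriers, and the windows of NARS1 (0.71) and the carrier SLC1A3 (-0.53), which were not called, held it too. The promoters of CHAC1 (chr15:40953221-40953520, plus strand), CARS1 (chr11:3057374-3057673, minus strand) and MARS1 (chr12:57487818-57488117, plus strand) are shown to place the element against the start site, which follows base 250; capitals mark the match, which in all 3 reads TTGCATCA because it lies on the opposite strand. The motif letters and the CARS1 and MARS1 windows were chosen after the values were seen, and a match is a description of the sequence, not evidence of binding.
CHAC1: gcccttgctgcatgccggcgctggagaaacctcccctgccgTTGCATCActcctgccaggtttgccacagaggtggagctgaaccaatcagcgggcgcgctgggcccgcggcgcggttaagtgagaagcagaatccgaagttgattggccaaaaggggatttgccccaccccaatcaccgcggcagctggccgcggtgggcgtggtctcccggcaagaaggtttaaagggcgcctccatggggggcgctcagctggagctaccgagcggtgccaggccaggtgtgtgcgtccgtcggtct
CARS1: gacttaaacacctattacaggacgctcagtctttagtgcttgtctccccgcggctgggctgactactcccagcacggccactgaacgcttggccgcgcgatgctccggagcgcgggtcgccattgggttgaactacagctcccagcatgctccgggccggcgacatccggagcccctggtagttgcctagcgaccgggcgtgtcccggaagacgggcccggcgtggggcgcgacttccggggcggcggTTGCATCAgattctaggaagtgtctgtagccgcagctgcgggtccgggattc
MARS1: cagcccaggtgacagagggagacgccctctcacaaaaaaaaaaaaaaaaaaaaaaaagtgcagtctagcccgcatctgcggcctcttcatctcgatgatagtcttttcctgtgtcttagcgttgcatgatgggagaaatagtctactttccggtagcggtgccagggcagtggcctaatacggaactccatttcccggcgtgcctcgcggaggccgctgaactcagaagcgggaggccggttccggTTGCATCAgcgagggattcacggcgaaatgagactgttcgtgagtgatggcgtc
In CHAC1 the match begins 209 bases before the start, and in CARS1 and MARS1 it spans the start itself.

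Chaperones of the endoplasmic reticulum were in part lower. HSPA5, the main chaperone of that compartment (BiP), was at 501, 502 and 577 CPM in controls and 422, 421 and 416 CPM with LPS and not called (-0.33 ± 0.15, adjusted p = 0.17). All LPS libraries lay below all controls, where the groups did not overlap for 42.6% of all genes. CALR, a lectin chaperone, fell from 2020.1, 2095 and 2246 to 1149, 1112 and 1158 CPM (log2 fold change -0.90 ± 0.12 SE, adjusted p = 5.2e-04), and MANF (-0.999), SDF2L1 (-0.99), PDIA4 (-0.80), HSP90B1 (-0.69) and CRELD2 (-0.64) fell too. What rose in the same list were sensors and parts of the degradation route: the sensor ERN1 (IRE1) and its target XBP1 at 8.03, 10.8 and 10.998 CPM in controls and 25.8, 26.9 and 22.5 CPM with LPS and at 150.1, 140.1 and 151 CPM in controls and 412, 368 and 426 CPM with LPS (1.33 and 1.45), with HERPUD1 (1.55), ATF6 (0.62) and EDEM1 (0.63). Of 41 members 9 were called lower and 6 higher (median -0.06), against 7.19% and 7.71% of all genes. In the fit of the 6 libraries alone 15 were called lower.

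Part of the cytosolic and mitochondrial chaperones fell. HSPA8, the constitutive HSP70, was at 2852, 2875 and 2889 CPM in controls and 1405, 1377 and 1331 CPM with LPS (log2 fold change -1.07 ± 0.19 SE, adjusted p = 0.0034) and HSP90AB1, the constitutive HSP90, at 2284, 2377 and 2688 CPM in controls and 1324, 1193 and 1201 CPM with LPS (-0.98 ± 0.16, adjusted p = 0.00206), so that the groups were far apart at high expression. The HSP90 partner FKBP4 fell from 94.7, 102 and 111 to 46.2, 38.98 and 41.8 CPM, and the mitochondrial chaperonin pair HSPD1 (-0.83) and HSPE1 (-1.06) fell together. The mitochondrial HSP70, HSPA9, was called higher (0.42), though not without control 1, 2 or 3 or LPS 1 or 3. The stress-inducible pair HSPA1A (-0.43) and HSPA1B (-0.18), near-identical copies between which reads cannot be split with certainty, was not called. Of 26 members 13 were called lower, against 7.19% of all genes, and 8 of the 13 fell with every library left out (list median -0.49). Leaving out control 3 gave 8 lower calls.

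Most interferon-stimulated genes were higher with LPS. Of 51 antiviral members tested, 43 were called higher and 0 lower, against 7.71% and 7.19% of all genes. In this list 31 rose with every library left out, and the median log2 fold change was 1.35. IFI27 was at 100.1, 78.6 and 94.1 CPM in controls and 393, 393 and 591 CPM with LPS (log2 fold change 2.34 ± 0.21 SE, adjusted p = 7.9e-05) and MX1, an antiviral GTPase, at 111, 97.3 and 99.3 CPM in controls and 318, 360.2 and 514 CPM with LPS (1.96 ± 0.19, adjusted p = 1.1e-04). ISG15, a ubiquitin-like modifier, went from 89.2, 78.2 and 82.1 to 205, 221 and 353 CPM (1.64 ± 0.28, adjusted p = 0.00263). In all 3 genes LPS 3 was the highest library, and the lowest LPS library still stood above every control. Without LPS 3, 32 members were called higher. The RNA sensor RIG-I (named DDX58 in the files) and its relative DHX58 rose (1.55 and 1.21), as did the oligoadenylate synthetases OAS1 (1.59) and OAS2 (1.44), the radical SAM enzyme RSAD2 (2.26) and the nuclease ISG20 (1.97), and so did the membrane restriction factors IFITM1 (1.94) and IFITM3 (1.35). The RNA sensor IFIH1 (1.004) and OAS3 (0.995) were called higher but did not keep the call with each library left out. The chemokines CXCL10, at 20.997, 15.9 and 19.5 CPM in controls and 14.97, 10.04 and 25.04 CPM with LPS (-0.17), and CXCL11 (0.75) were not called, nor were EIF2AK2, HERC5, IFITM2, LAP3, TNFSF10 and ZNFX1.

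Upstream of these targets the transducers rose, and ligand and receptor transcripts did not. Ligand transcripts were near zero, and IFNB1 had raw counts of 1, 5 and 0 in controls and 1, 1 and 1 with LPS, too few to test. Of the receptor chains IFNAR1 was not called (0.05), and IFNAR2 was called lower (-0.51) but not without each of the 6 libraries in turn. The transducers rose: STAT2 from 81.5, 79.2 and 64.6 to 154, 192 and 230.1 CPM (1.36 ± 0.16, adjusted p = 3.1e-04), IRF9 (1.02) and the amplifier IRF7 from 44.2, 37.3 and 35.4 to 90.6, 142 and 159 CPM (1.74 ± 0.24, adjusted p = 6.6e-04). STING1, an adaptor of DNA sensing, rose (0.75), whereas the kinases JAK1 (0.27) and TBK1 (-0.22) and the factor IRF3 (-0.05) were not called. In all 5 of 23 members rose with every library left out, against 3.47% of all genes.

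The interferon-stimulated response element was searched by the core letters GAAANNGAA on both strands. It occurred in 28 of 42 promoters of the antiviral list (66.7%), in 49 of 358 genes that rose (13.7%) and in 4.5% of those that fell. Its share was 6.58% among the 10616 genes tested that had a window and 8.29% among all promoters. In the called-higher members of the list it stood in 23 of 36, and it was also in the windows of CXCL10, HERC5, LAP3, EIF2AK2 and TNFSF10, which were not called. The windows of IFI27 (chr14:94110486-94110785, plus strand), EPSTI1 (chr13:42992192-42992491, minus strand) and IFI6 (chr1:27672143-27672442, minus strand), taken from the 6 members with the smallest p, show how the number of elements differs between genes with similar fold changes (2.34, 2.15 and 2.08); capitals mark the elements. IFI44L (2.57) and RSAD2 (2.26), named after their values were seen, also hold a match and are not shown.
IFI27: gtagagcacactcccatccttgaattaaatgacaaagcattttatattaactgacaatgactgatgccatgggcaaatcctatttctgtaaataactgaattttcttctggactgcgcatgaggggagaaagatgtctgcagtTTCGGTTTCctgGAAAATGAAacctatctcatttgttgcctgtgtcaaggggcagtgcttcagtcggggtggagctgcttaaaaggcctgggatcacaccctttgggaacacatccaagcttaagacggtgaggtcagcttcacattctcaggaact
EPSTI1: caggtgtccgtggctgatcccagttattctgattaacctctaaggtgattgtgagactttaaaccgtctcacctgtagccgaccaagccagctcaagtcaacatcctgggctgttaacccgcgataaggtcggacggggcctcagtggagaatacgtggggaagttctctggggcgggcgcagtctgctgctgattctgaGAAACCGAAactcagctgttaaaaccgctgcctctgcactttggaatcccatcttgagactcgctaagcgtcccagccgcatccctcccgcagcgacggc
IFI6: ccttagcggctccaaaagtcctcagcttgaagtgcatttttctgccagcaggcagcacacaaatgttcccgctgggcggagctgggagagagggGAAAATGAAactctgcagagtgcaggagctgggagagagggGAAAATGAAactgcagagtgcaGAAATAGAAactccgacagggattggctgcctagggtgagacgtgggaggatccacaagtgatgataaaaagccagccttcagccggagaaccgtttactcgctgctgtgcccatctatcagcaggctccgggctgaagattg
IFI27 carries 2 elements, EPSTI1 carries 1 and IFI6 carries 3.

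NF-kB-driven inflammatory genes were called at about the rate of all genes. Of 43 NF-kB-driven genes tested, 3 were called higher and 4 lower, 16.3% in all against 14.9% of all genes tested, and the median log2 fold change was -0.19. TNF was at 49.5, 44.6 and 43.3 CPM in controls and 53.5, 47.2 and 103 CPM with LPS (log2 fold change 0.57 ± 0.41 SE, adjusted p = 0.393): LPS 3 stood above the rest, while LPS 2 lay among the controls and LPS 1 just above them. NFKBIA, the inhibitor that NF-kB itself induces, was at 224, 219 and 208 CPM in controls and 179.9, 189.99 and 302 CPM with LPS (0.05), again with LPS 3 highest and the other LPS libraries below all controls. TNFAIP3 (-0.03), CXCL8 (-0.33), CCL2 (0.64), CCL5 (-0.02), SOD2 (-0.32), ICAM1 (0.31) and PTGS2 (-0.10) were not called. IL6 had raw counts of 0, 2 and 1 in controls and 0, 1 and 2 with LPS, and IL10 had 1, 0 and 0 against 0, 0 and 0.

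IL1B, a major inflammatory cytokine, fell: it was at 37.5, 37.6 and 50.8 CPM in controls and 12.02, 12.1 and 13.8 CPM with LPS (log2 fold change -1.73 ± 0.20 SE, adjusted p = 2.3e-04), with all LPS libraries under the lowest control. PLAUR, the urokinase receptor, fell from 69.5, 68.5 and 70.2 to 40.02, 43.05 and 47.1 CPM (-0.68 ± 0.14, adjusted p = 0.00617). SERPINB2 (-0.94) and BCL2A1 (-1.16) were called lower but not without control 1, 2 or 3 or LPS 2 or 3 and not without control 1 or 3 or LPS 1, 2 or 3, respectively. The member of the list that rose was G0S2, an inhibitor of triglyceride lipase, from 27.7, 23.97 and 24.4 to 114, 115 and 117 CPM (2.18 ± 0.24, adjusted p = 2.0e-04). IL23A (1.17) and IL18 (0.73) were called higher, IL23A not without control 1, 2 or 3 or LPS 1 or 3 and IL18 not without control 1, 2 or 3 or LPS 1 or 3. With control 1, 2 or 3 or LPS 1 or 3 left out, 1, 1, 1, 1 and 1 members were called higher, respectively. Without control 1 or 3 or LPS 2, 2, 2 and 2 members were called lower, respectively. With DESeq2, 11 members were called in either direction.

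Parts of the receptor complex were detected in every library. TLR4 was at 8.03, 9.29 and 8.02 CPM in controls and 13.3, 12.1 and 12.7 CPM with LPS (0.59 ± 0.27, adjusted p = 0.167, not called). Its LPS libraries did not overlap the controls, as was so for 42.6% of all genes. CD14 (18.4, 16.4 and 17.8 CPM in controls and 27.3, 31.4 and 35.2 CPM with LPS), its partner LY96 (1.29, 0.759 and 0.763 CPM in controls and 2.30, 2.58 and 2.88 CPM with LPS) and the adaptor MYD88 (91.4, 83.6 and 77.9 CPM in controls and 102, 127 and 145 CPM with LPS) were called higher (0.84, 1.46 and 0.56), but CD14 lost the call without control 2 or LPS 3, LY96 without each of the 6 libraries in turn and MYD88 without control 1, 2 or 3 or LPS 2 or 3. The endosomal receptor TLR7 was called higher (1.58) and the kinase adaptor TAB1 lower (-0.62), neither in every fit: TLR7 not without control 1, 2 or 3 or LPS 1 or 3, TAB1 not without control 1, 2 or 3 or LPS 1 or 3. In all, 0 of 26 members kept a call with each library left out, where 5.34% of all genes did. Per length, the controls held 0.684 FPKM of TLR4 against 0.769 of LY96 and 11.9 of CD14 on the FPKM scale.

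**Figure D4:**
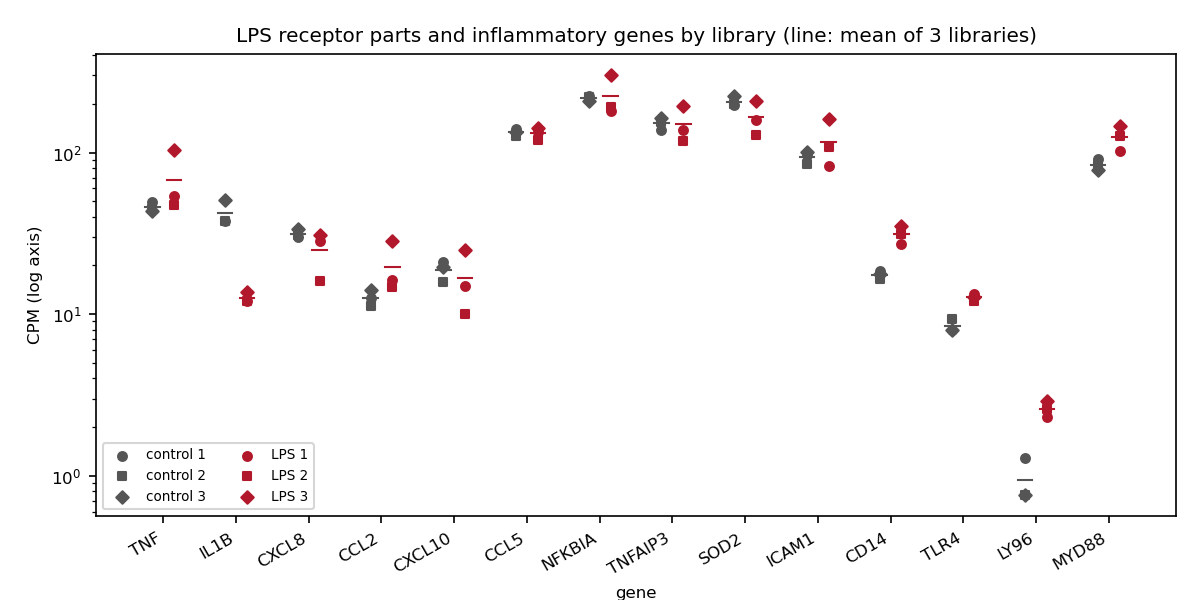
Level in CPM (log axis) of LPS receptor parts and inflammatory genes in each control (grey) and LPS (red) library, with the mean of 3 libraries as a line. LPS 3 is the highest LPS library for TNF, NFKBIA, TNFAIP3 and ICAM1, IL1B is lower in all LPS libraries (12.02, 12.1 and 13.8 CPM), and CD14 is higher in all of them (27.3, 31.4 and 35.2 CPM).

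Regulators that restrain inflammation rose in part. KLF2, a transcription factor that quiets monocytes, was at 6.90, 6.05 and 3.99 CPM in controls and 21.01, 35.5 and 40.6 CPM with LPS (log2 fold change 2.52 ± 0.35 SE, adjusted p = 7.8e-04), and TSC22D3 (GILZ), a glucocorticoid-induced inhibitor, at 38.02, 31.3 and 28.6 CPM in controls and 158, 159 and 163 CPM with LPS (2.29 ± 0.24, adjusted p = 1.4e-04). ATF3, a repressor of Toll-like receptor targets and a member of the ATF4 network, rose from 4.10, 3.13 and 2.83 to 13.9, 14.9 and 15.5 CPM, and KLF6 rose by 0.82. PPARG (0.75) and NR4A1 (1.49) were called higher, PPARG not without control 1 or 2 and NR4A1 not without control 2 or 3 or LPS 2 or 3. The mRNA-decay factor ZFP36 (0.31) and the phosphatase DUSP1 (0.12) were not called. In all 4 of 27 members rose with every library left out and 0 fell, against 3.47% and 1.87% of all genes.

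Inflammasome regulators rose in part, and the core members did not. The ATP-gated channels P2RX7, at 10.5, 9.48 and 8.51 CPM in controls and 42.6, 38.3 and 52.9 CPM with LPS (log2 fold change 2.23 ± 0.18 SE, adjusted p = 7.2e-05), and P2RX4 (1.08) rose, as did the sensor NLRP12, from 3.50, 2.09 and 1.70 to 18.9, 35.8 and 29.9 CPM (3.53 ± 0.42, adjusted p = 3.1e-04), and the thioredoxin-binding TXNIP, from 193, 179.8 and 179 to 728, 695 and 666 CPM (1.92 ± 0.21, adjusted p = 1.8e-04). NLRP3 (0.13), the adaptor PYCARD (-0.08), CASP1 (0.11) and the pore-forming GSDMD (0.21) were not called. The leukotriene enzyme ALOX5 rose from 4.79, 3.80 and 4.18 to 14.2, 19.4 and 20.5 CPM (2.08 ± 0.19, adjusted p = 7.9e-05).

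**Figure D5:**
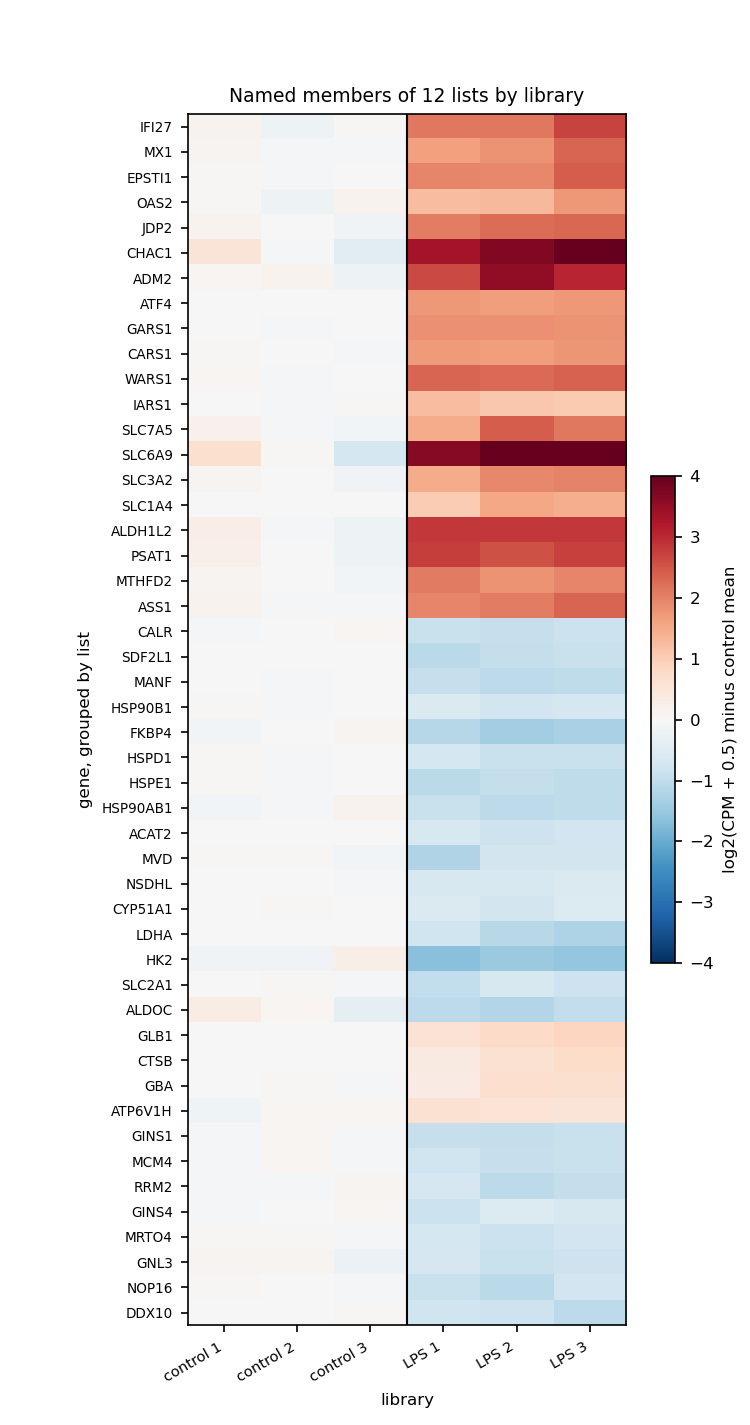
Log2(CPM + 0.5) minus the mean of the 3 controls, for 48 named genes of 12 lists (up to 4 per list, rows) in 6 libraries (columns); red is higher and blue lower than the control mean. The largest deviation of a control is 0.69, and LPS libraries reach from -1.67 to 4.41.

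Several enzymes of sugar use fell. LDHA, which turns pyruvate into lactate, was at 1084, 1079 and 1092 CPM in controls and 621, 499 and 458 CPM with LPS (log2 fold change -1.04 ± 0.13 SE, adjusted p = 3.7e-04); the controls lay close together, and every LPS library was far below them. Hexokinase HK2 fell from 22.1, 21.7 and 29.2 to 7.22, 8.37 and 7.95 CPM (-1.63 ± 0.21, adjusted p = 4.4e-04), and the glucose transporter SLC2A1 (-0.80), ALDOC (-1.11) and ENO2 (-1.95) fell too. Another transporter, SLC2A3, rose (1.03). Of 27 members 11 were called lower and 1 higher (median -0.35), against 7.19% and 7.71% of all genes. The called lower count of this list was 6 and 5 without control 1 or 2, respectively. Of 18 hypoxia-type genes 8 were called lower and 2 higher (median -0.40). Leaving out control 1, 2 or 3 or LPS 2 or 3 gave 4, 4, 5, 4 and 3 lower calls, respectively. Among them BNIP3 (-1.51), FAM162A (-1.02) and HILPDA (-1.101) fell, while VEGFA, at 57.6, 51.5 and 38.1 CPM in controls and 232, 240.1 and 265 CPM with LPS (2.33 ± 0.23, adjusted p = 1.3e-04), and MXI1 (0.73) rose. TXNIP and ARRDC4 (1.23), arrestins that limit glucose uptake and that respond to glucose through MLX factors, rose together with KLF10 (0.99).

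Enzymes along the sterol pathway fell. SQLE, squalene epoxidase, was at 290.2, 293 and 282 CPM in controls and 178, 168 and 185 CPM with LPS (log2 fold change -0.70 ± 0.14 SE, adjusted p = 0.00529), and ACAT2, the first thiolase step, at 244, 247 and 239.9 CPM in controls and 156, 138 and 144 CPM with LPS (-0.74 ± 0.10, adjusted p = 8.1e-04). The mevalonate enzymes HMGCS1 (-1.01), MVK (-0.71) and MVD (-0.88) and the later enzymes NSDHL (-0.62) and CYP51A1 (-0.62) fell. Of 25 members 15 were called lower and 0 higher (median -0.53), against 7.19% and 7.71% of all genes. The call held with every library left out for 7 of the 15. With control 1 or 2 left out, 7 and 9 members were called lower, respectively. Among efflux genes the cholesterol exporter ABCA1 rose (0.96) and lipoprotein lipase LPL fell (-1.29).

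Many genes for copying DNA and building ribosomes were lower. Of 45 replication genes 24 were called lower and 1 higher (median -0.50), against 7.19% and 7.71% of all genes. MCM4, of the replicative helicase, was at 588, 636 and 586 CPM in controls and 344, 319 and 324 CPM with LPS (log2 fold change -0.88 ± 0.16 SE, adjusted p = 0.00374), GINS1, its cofactor, at 72.8, 80.1 and 73.7 CPM in controls and 39.8, 38.7 and 40.7 CPM with LPS (-0.93 ± 0.16, adjusted p = 0.00265), and RRM2, of ribonucleotide reductase, at 137, 140.4 and 156 CPM in controls and 90.4, 68.8 and 74.04 CPM with LPS (-0.89 ± 0.16, adjusted p = 0.00399). The licensing factor CDT1 was the member called higher (0.61), though not without control 1, 2 or 3 or LPS 3. Without control 1, 2 or 3 or LPS 2 or 3, 11, 10, 9, 14 and 6 members were called lower, respectively. CCNE1, the cyclin that starts S phase, fell (-0.94), and CDKN2D, an inhibitor of the cyclin D kinases, rose (1.03). Of 35 mitotic genes MYBL2 fell (-0.69), BUB1B was called lower (-0.57) but not without control 1, 2 or 3 or LPS 3, and the median was -0.01.

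Of 36 ribosome biogenesis factors 21 were called lower and 0 higher (median -0.58), against 7.19% and 7.71% of all genes. Among those called lower were MRTO4, at 127, 127 and 116 CPM in controls and 75.9, 68.5 and 72.1 CPM with LPS (log2 fold change -0.78 ± 0.12 SE, adjusted p = 0.00137), and TSR1 (-0.97), NOP16 (-0.92), DDX10 (-0.92), GNL3 (-0.80) and RRP9 (-0.73). The called lower count of this list was 11, 10, 7, 11 and 9 without control 1, 2 or 3 or LPS 2 or 3, respectively. None of 49 cytoplasmic ribosomal proteins was called by edgeR, 3 had an unadjusted p under 0.05, and DESeq2 called 0 higher and 0 lower. Those proteins took 7.44%, 7.35% and 7.72% of counts in controls and 8.20%, 6.74% and 7.35% with LPS (exact permutation test, two-sided p = 0.9, where the smallest possible p is 0.1). MYC, which drives both programmes in many cells, was at 150.02, 149.8 and 161 CPM in controls and 182, 205 and 194 CPM with LPS and not called (0.33).

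Smaller shifts touched other macrophage functions. In MHC class I presentation HLA-E rose from 203, 205 and 174 to 359.6, 406 and 456 CPM (1.07 ± 0.18, adjusted p = 0.00245), and in class II the invariant chain CD74 rose (0.75); reads of HLA genes can be split among near-identical copies. Of 46 lysosomal genes 9 were called higher and 0 lower, against 7.71% and 7.19% of all genes. Only 2 of the 46 rose, the beta-galactosidase GLB1 (0.75) and the protease CTSB (0.58), near the 3.47% of all genes that did. Leaving out control 1, 2 or 3 or LPS 3 gave 3, 2, 2 and 2 higher calls, respectively. The divalent metal exporter of phagosomes SLC11A1, at 4.41, 5.73 and 5.68 CPM in controls and 12.97, 17.4 and 16.8 CPM with LPS (1.58 ± 0.23, adjusted p = 9.2e-04), rose, with the metallothioneins MT1X (1.497), MT2A (1.33) and MT1E (0.83), whose sequences are close to one another. The transferrin receptor TFRC was called lower (-0.75) but not without control 1, 2 or 3 or LPS 2 or 3. AXL, a receptor for the coat of apoptotic cells, was at 65.5, 57.7 and 55.7 CPM in controls and 111, 231 and 256 CPM with LPS (1.74 ± 0.25, adjusted p = 8.1e-04), with LPS 1 well under the other LPS libraries.

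Genes of antioxidant defence and glutathione turnover were higher in part. Of 32 NRF2 targets and glutathione genes 7 were called higher and 0 lower (median 0.20), against 7.71% and 7.19% of all genes. With control 1, 2 or 3 or LPS 3 left out, 4, 3, 3 and 4 members were called higher, respectively. The 3 that rose were CHAC1, which degrades glutathione and is also in the ATF4 network, malic enzyme ME1 (1.09) and biliverdin reductase BLVRB (1.06). HMOX1 was called higher (0.85), though not without control 1, 2 or 3 or LPS 3. Of 47 oxidative phosphorylation subunits 7 were called lower and 0 higher (median -0.18). With each library left out 0 kept the call, where 5.34% of all genes did. Without control 1, 2 or 3 or LPS 2 or 3, 0, 1, 0, 0 and 0 members were called lower, respectively. CDKN1A, the p53-induced cell cycle inhibitor, was at 136, 136 and 117 CPM in controls and 156, 166 and 183 CPM with LPS and not called (0.37).

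The largest changes outside these pathways, among genes whose higher group averaged 100 counts or more, were led by S100P, a calcium-binding protein. S100P was at 1.73, 1.45 and 0.960 CPM in controls and 30.8, 32.2 and 40.1 CPM with LPS (log2 fold change 4.63 ± 0.63 SE, adjusted p = 6.4e-04). SYTL1, a Rab effector in secretion, went from 3.60, 1.84 and 0.960 to 29.1, 35.9 and 36.5 CPM (3.98 ± 0.52, adjusted p = 5.2e-04), and ST6GALNAC3, a sialyltransferase, from 1.46, 0.782 and 0.664 to 19.6, 15.9 and 17.4 CPM (4.18 ± 0.67, adjusted p = 0.00177). KLHDC7B, TM6SF1, DNAH10, LRRC2, TMCC3 and NEB rose from under 1 CPM in every control, by 3.75 to 4.41 on the log2 scale. At the other end TBC1D30, a Rab GTPase-activating protein, was at 17.7, 19.1 and 15.01 CPM in controls and 1.72, 0.908 and 0.849 CPM with LPS (-3.89 ± 0.38, adjusted p = 1.3e-04), and NPTX1, a secreted pentraxin, at 7.84, 8.88 and 14.5 CPM in controls and 1.31, 1.77 and 0.952 CPM with LPS (-2.95 ± 0.37, adjusted p = 4.4e-04). SDC1, a heparan sulfate proteoglycan, TERT, the reverse transcriptase of telomerase, and ADAMTS1, a secreted protease, fell by 2.35, 2.18 and 2.07. FCAMR and PIGR, neighbouring Fc receptor genes for polymeric immunoglobulins, both fell (-2.096 and -1.94).

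Abundant and precisely measured genes also moved. By mean CPM the leading genes that rose were SMAP2, an Arf GTPase-activating protein, at 2752, 2785 and 2566 CPM in controls and 4041, 4478 and 4782 CPM with LPS (0.72 ± 0.12, adjusted p = 0.0021), carbonic anhydrase CA2 (0.79) and the granule protease CTSG, at 764, 771 and 756 CPM in controls and 1508, 1599 and 1751 CPM with LPS (1.08 ± 0.13, adjusted p = 3.1e-04). Those that fell were led by HSPA8, HSP90AB1 and CALR, followed by the tubulin TUBB (-0.47) and LDHA. Among changes under 2-fold with the smallest p were the inhibitory receptors LAIR1, at 304, 289 and 275 CPM in controls and 541, 586 and 576 CPM with LPS, and LILRB4, at 164, 169.5 and 151 CPM in controls and 275, 329 and 329 CPM with LPS (0.97 and 0.95), both with groups well apart, and the antiproliferative BTG1 (0.98). On the falling side stood the lipid carrier FABP5, from 124, 125 and 124 to 76.002, 58.2 and 56.4 CPM (-0.96), and the centromere protein CENPX (-0.95).

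Transcription factors were read from the family column of the deposited annotation. Of 562 factors tested 43 were called higher and 24 lower (11.9%, against 14.9% of all genes). That column is not complete: it gives no family for ATF4, DDIT3, CEBPG, JDP2 and ATF6, bZIP factors that also rose. The genes it places in the bZIP family had 6 higher and 3 lower of 29 (31.0%). Of those 29, the factors that rose were ATF3, ATF5, CEBPB, XBP1 and BATF3, the last chosen after its values were seen, at 9.16, 8.60 and 8.88 CPM in controls and 27.2, 25.5 and 28.5 CPM with LPS, and BATF fell (-0.70). Of 8 factors of the RHD family, which includes the NF-kB factors but is not limited to them, 0 were called by edgeR. Of 123 zinc finger (C2H2) factors 7 were called.

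Markers of the labelled cell type were checked per length. CD68 was at 161 FPKM in controls and 178 FPKM with LPS, the myeloid master factor SPI1 at 154 FPKM in controls and 161 FPKM with LPS and lysozyme LYZ at 113 FPKM in controls and 105 FPKM with LPS. ITGAM, the CD11b chain, was low (3.61 FPKM in controls and 2.49 FPKM with LPS), and FCGR3A and MSR1 had too few counts to be tested. Of 26 identity genes tested LILRB4 rose, and the others did not keep a call with each library left out. Markers of other cells were mostly low. Of 8 T cell markers 0 passed the count filter, and the summed share of fibroblast markers was at most 0.000421% of counts in any library. Of the B cell markers 3 were tested and none called by edgeR, and the list's summed level ran from 10.8 to 11.5 CPM in controls and from 12.8 to 19.2 CPM with LPS, higher in every LPS library. Of these PAX5 came nearest to a call (0.74 ± 0.24, adjusted p = 0.0553), with overlapping groups. The epithelial list summed to at most 3.65 CPM in any library. The endothelial list rested on PECAM1, which monocytes also express and which was called higher (0.43), not without control 1, 2 or 3 or LPS 2 or 3. Their part in the results was not tested.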

How the data were processed

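RNA was sequenced from 9 libraries, 3 per group. The authors deposited raw counts of reads per gene, and separately FPKM values, for 16222 genes. The tools listed per the submitters' processing notes are DESeq2, HTSeq, HISAT2, fastp and R 3.2.0, without their order; genome build, annotation and strand setting are not given in the sources used here, and per the labels' protocols 2 library kits are named without saying which was used. Without the strand setting, reads of overlapping or antisense genes cannot be told apart.

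Genes were kept by edgeR 4.0.16 filterByExpr (12970 genes, 99.985% of counts) in R 4.3.3, scaled by TMM and tested with the quasi-likelihood F test on all 9 libraries in 3 groups (6 residual degrees of freedom), LPS minus control, with Benjamini-Hochberg adjustment over all genes tested and a threshold of 0.05. The common coefficient of variation between replicates, estimated over all 9 libraries including those of LPS with ABS, was 18.4%. The share of counting error in the spread between replicates was not tested. CPM are counts scaled to the TMM library size; FPKM, the authors' unit per length, was used only to compare levels between genes. The test was tried on simulated data first.

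The comparison, the gene lists and the landmark genes were chosen with earlier results of these data known, so the lists describe and give no independent support; the motif letters and the order of the lists were settled after the counts were seen. Genes were first picked by rule: the 12 largest rises and falls with non-overlapping groups and at least 100 counts on average, the 5 most precise changes under 2-fold, the 5 most abundant, up to 6 members per list and direction, and landmarks. Not every gene picked this way is described. Further list members, such as SARS1, YARS1, OAS1, RSAD2 and HMGCS1, were named outside these rules with their values known. No list was tested as a set. Alternatives were RLE and total-count scaling, DESeq2 1.42.0, limma-voom (limma 3.58.1), no and a stricter (100 counts) low-count filter, the 6 libraries alone, a replicate block, a GC content offset, and each library left out. Promoters came from RefSeq (GRCh38.p14); 10616 of the genes tested matched by gene ID. A longer form of the interferon element, and elements of the folding and heat stress responses, were also searched and are not reported here. Results on a few genes are also not reported here.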

Additional observations from a re-analysis of the deposited data

How the results depend on the processing

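No gene said to rise or fall changed direction when 1 LPS or control library was left out, which its definition requires. Genes that were not called could change direction. For NFKBIA the LPS libraries left without LPS 3 lay below all controls. Called genes numbered 1862 to 2741 under other scalings, tests, filters and the GC offset, and 3245 (1553 higher, 1692 lower) with the 6 libraries only. Leaving out 1 library at a time, any group, gave 873 to 2710 (higher 537 to 1328, lower 329 to 1382). Without a control or LPS library the number was 873 to 1698. Without library 1, 2 or 3 of LPS with ABS it was 2562, 1906 and 2710. The ranges by list given below likewise cover libraries of any group. The 692 genes that rose or fell in every leave-one-out fit were all called in 6 of the other 9 alternatives, 691 with limma-voom and with the GC offset, and 663 with the stricter filter, which tested fewer genes. With 1 library left out, members called ranged over 31 to 47 (interferon-stimulated, higher), 3 to 8 (NF-kB-driven, either direction), 23 to 27 (ATF4 network, higher), 9 to 14 (cytosolic synthetases, higher), 9 to 12 (amino acid carriers, higher), 15 to 17 (amino acid synthesis, higher), 6 to 13 (ER chaperones, lower), 8 to 14 (cytosolic chaperones, lower), 7 to 17 (cholesterol synthesis, lower), 5 to 14 (glycolysis, lower), 2 to 13 (lysosome, higher), 6 to 29 (DNA replication, lower) and 7 to 24 (ribosome biogenesis, lower). ER chaperones called lower were 15 with the 6 libraries only, and NF-kB-driven genes called were 11 with DESeq2; the cause was not tested. Deviations of same-numbered control and LPS libraries correlated at 0.052, -0.051 and -0.064. Some pairs with libraries of LPS with ABS correlated more strongly, among same-numbered and different-numbered pairs alike. With so few libraries per group these correlations cannot decide whether equal numbers mark a shared batch. A replicate block called 1960 genes, 1776 of them shared with the 1933. The median SE was 0.47 in the fifth of genes with the lowest FPKM and 0.14 in the fifth with the highest. The part of sequencing depth in this was not tested.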

Other observations

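Among genes in none of the lists, chosen after their values were seen, several moved with groups well apart. The complement receptor C5AR1 rose from 2.92, 2.09 and 2.85 to 16.6, 20.2 and 22.9 CPM (log2 fold change 2.92 ± 0.28 SE, adjusted p = 1.1e-04). Thrombomodulin THBD fell from 125, 123 and 193 to 50.3, 74.4 and 49.02 CPM (-1.34 ± 0.28, adjusted p = 0.00744), the actin bundler FSCN1 from 291, 277 and 292 to 107, 161 and 143 CPM (-1.06 ± 0.16, adjusted p = 0.00125) and the acetyltransferase KAT2A from 94.7, 105 and 94.1 to 36.9, 48.9 and 45.6 CPM (-1.16 ± 0.18, adjusted p = 0.00147).

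The LPS libraries differed among themselves in several lists. The median over interferon-stimulated genes of log2(CPM + 0.5) minus the control mean was 1.18, 1.21 and 1.67 in LPS 1, 2 and 3, and over NF-kB-driven genes -0.38, -0.33 and 0.06. Over the ATF4 network it was 2.02, 2.23 and 2.30, and in controls 1, 2 and 3 it was 0.16, 0.02 and -0.19.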
